A study of Mus musculus with 21 samples.

Results

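The 35 genes described here are chemokines and chemokine receptors of the mouse, 19 ligands and 16 receptors, measured by RNA sequencing in sorted dendritic cells (DCs). They were taken by symbol from a list of names, and all 35 were found among the 55471 genes of the count table. The list leaves out 20 further chemokines and 9 further receptors, Ccl17, Ccl22, Ccr7 and Xcr1 among them, which are given here as counts.

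Chemokines are small secreted proteins that guide leukocytes along gradients by binding receptors that couple to inhibitory G proteins. Atypical receptors bind chemokines without such coupling and take them up or present them. In DCs the receptors set where a cell goes, with CCR2 drawing precursors and monocytes, CXCR4 holding cells in bone marrow and CXCR5 leading towards follicles, while the ligands a DC makes draw T cells and other leukocytes to it.

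The cells came from C57BL/6 mice aged 6 weeks that all carry a reporter allele of Aire, the autoimmune regulator. Every mouse had 1 AGF-KI allele, so no group has a pair of unmodified alleles. Mice written KI/+ here have the genotype AGF-KI/+, and the mice that the titles call AireKO have AGF-KI/-. From lymph node (LN), CD45+CD11c+MHCII+ cells of each genotype were divided into those with the reporter (AGF+) and those without it (AGF−). From bone marrow (BM), AGF+ cells of both genotypes came from the B220−CD24+ fraction with little or no CD11b, and KI/+ mice also gave a population named total DC in the titles, gated as B220−CD11c+MHCII+. The 7 groups held 3 libraries each, 21 in all, described in the labels as independent biological replicates. The BM populations passed through different gates, so that reporter and gate cannot be told apart there, and no AireKO total DC library was used.

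Libraries held 4164451 to 6055097 counts, and levels are given as CPM, counts scaled by effective library size, at which 3 counts in a library equal 0.456 to 0.764 CPM. Aire itself stood at 98.6, 111 and 131 CPM in LN AGF+ KI/+ cells and at 22.7, 26.2 and 26.5 CPM in AireKO cells, and it fell by 2.81 ± 0.22 on the log2 scale between the genotypes in BM AGF+ cells (edgeR quasi-likelihood, adjusted p = 0.000354). All 9 DC and sort markers listed, including Itgax and H2-Ab1, had counts in every group, and Itgax was lowest in BM AGF+ cells at 58.3 CPM on average in KI/+ against 468 CPM in total DCs. The 7 libraries numbered 2 stood apart by Xist, at 2022 to 3994 CPM against 0 to 31.1 CPM in the other 14, and by 4 Y-linked genes summing to at most 0.766 CPM against 329 to 567 CPM, which goes against the label male for them. They are balanced over the groups, and sort results are also given without them below for most members whose call changes. In these bulk samples, fewer cells of a type and less RNA per cell cannot be told apart.

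The stretches upstream of 6 members are shown because these genes carry the main contrasts: Cxcl10, lower in LN AGF+ cells and higher in BM AGF+ cells than in their comparison groups, lies close to Cxcl9 on chromosome 5, Ccrl2 and Cx3cl1 were higher in LN AGF+ cells, and Ccl9 and Ccl6 were the chemokines lowered most evenly there. Each holds the 250 bases before a RefSeq transcript start on GRCm38.p6, written 5′ to 3′ on the gene's strand, with motif matches in capitals.
Cxcl10, chr5:92348890-92349139, minus strand: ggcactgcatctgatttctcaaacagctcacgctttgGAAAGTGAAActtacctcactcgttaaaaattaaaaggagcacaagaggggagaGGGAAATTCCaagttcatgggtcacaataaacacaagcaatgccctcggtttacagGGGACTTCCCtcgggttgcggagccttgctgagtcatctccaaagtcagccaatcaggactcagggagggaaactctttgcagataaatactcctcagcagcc
Cxcl9, chr5:92328080-92328329, minus strand: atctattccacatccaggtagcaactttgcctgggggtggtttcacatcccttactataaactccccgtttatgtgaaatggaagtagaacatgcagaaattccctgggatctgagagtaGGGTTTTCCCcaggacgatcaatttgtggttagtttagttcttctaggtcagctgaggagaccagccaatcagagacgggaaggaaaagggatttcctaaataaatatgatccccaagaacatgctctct
Ccrl2, chr9:111057519-111057768, minus strand: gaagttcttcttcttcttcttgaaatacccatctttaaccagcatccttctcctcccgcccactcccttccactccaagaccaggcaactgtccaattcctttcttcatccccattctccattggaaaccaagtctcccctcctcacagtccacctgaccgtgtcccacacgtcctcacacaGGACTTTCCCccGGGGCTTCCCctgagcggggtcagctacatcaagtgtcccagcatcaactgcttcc
Cx3cl1, chr8:94771930-94772179, plus strand: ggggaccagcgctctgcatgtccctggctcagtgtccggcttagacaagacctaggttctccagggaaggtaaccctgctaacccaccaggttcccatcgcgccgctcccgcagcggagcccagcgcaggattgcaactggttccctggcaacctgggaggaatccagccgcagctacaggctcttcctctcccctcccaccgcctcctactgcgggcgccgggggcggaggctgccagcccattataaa
Ccl9, chr11:83578637-83578886, minus strand: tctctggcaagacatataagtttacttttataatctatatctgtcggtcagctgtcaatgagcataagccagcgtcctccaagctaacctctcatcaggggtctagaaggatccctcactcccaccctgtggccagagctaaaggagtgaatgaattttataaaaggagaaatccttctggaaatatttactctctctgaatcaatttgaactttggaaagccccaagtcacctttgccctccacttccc
Ccl6, chr11:83593088-83593337, minus strand: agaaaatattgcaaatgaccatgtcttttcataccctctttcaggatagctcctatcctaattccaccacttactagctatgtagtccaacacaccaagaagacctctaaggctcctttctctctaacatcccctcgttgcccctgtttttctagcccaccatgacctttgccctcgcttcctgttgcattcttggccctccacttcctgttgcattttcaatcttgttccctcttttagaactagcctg

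The capitals mark an interferon-response motif searched as GAAA, any 2 bases and GAAA again, and a kappaB motif searched as GGGA, any 4 bases and CC, both on either strand. The Cxcl10 stretch holds the first at -213 to -204 from the start and the second at -159 to -150 and at -103 to -94. Cxcl9 has 1 kappaB match at -130 to -121, and Ccrl2 has a pair of them at -68 to -59 and -56 to -47 in the stretch shown, 1 of its 3 annotated starts. Cx3cl1, Ccl9 and Ccl6 hold neither motif in these windows. Among 31 windows of the 27 members that matched the table, 13 held a kappaB match, against 17.6% of all 32851 windows, and 2 held the interferon-response motif (Cxcl10 and Ccl19), against 2.98%. A PU.1 motif, GAGGAAGT, was found in the Cxcr3 window alone among the members and in 2.44% of all windows. Such matches describe letters and do not show binding. Ccl2, Ccl4, Ccl5, Ccl7, Cxcl11, Cxcl16, Ccr10 and Cxcr5 had no entry.

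Levels per kilobase of exon, the scale on which genes can be compared, put the same 3 members at the top in every group. Ccl5, a ligand of CCR1 and CCR3 among other receptors, led in every group but BM AGF+ KI/+ cells, with a mean of 523 CPM per kb in LN AGF− KI/+ cells and 322 in LN AGF+ KI/+ cells. Cxcl16, the membrane-bound ligand of CXCR6, reached 171 and 137 CPM per kb in the same groups. Cxcr4, the receptor of CXCL12, was at 76.5 and 35.0. In BM AGF+ KI/+ cells the 3 were close together, at 63.0 CPM per kb for Cxcr4, 62.8 for Cxcl16 and 60.4 for Ccl5. BM AGF+ AireKO cells had 74.4 for Ccl5, 65.2 for Cxcr4 and 63.4 for Cxcl16.

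At the other end, 7 members had too few counts to be tested in any comparison: Ccl7, Ccl12, Ccl19, Cxcl1, Ccr3, Ccr8 and Ackr3. Per kilobase, the highest group mean among these was that of Ccl12, a CCR2 ligand, at 2.72 CPM per kb in BM total DCs. Cxcl1, a neutrophil-attracting ligand, was at 1.58, 1.37 and 3.93 CPM in LN AGF+ KI/+ cells. Ccr8, a receptor known from regulatory T cells and skin-homing cells, had 3.36, 1.73 and 1.36 CPM in LN AGF− AireKO cells and was at 0 in all 9 BM libraries and in 3 of 3 LN AGF+ KI/+ libraries. The filter also kept Ccl2, Cxcl12 and Cxcr2 out of the LN comparisons and Cxcl11, Cxcl13, Cxcr3, Cx3cr1 and Ackr2 out of the BM ones.

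Most members that differed between AGF+ and AGF− cells of the lymph node were lower in the AGF+ cells. Of 25 members tested in KI/+ mice, 2 were higher and 11 lower, where 21.1% of all 15884 genes tested were called, 10.1% as higher and 11% as lower. In AireKO mice 3 were higher and 13 lower, against 24.7% called among all genes, 11.4% higher and 13.3% lower. The median log2 change of the members was -1.13 in KI/+ and -1.21 in AireKO, beside 0.01 over all genes in both. Receptors gave 1 higher and 7 lower of 12 in KI/+, and ligands 1 higher and 4 lower of 13. The same 10 members were lower in both genotypes (Ccl6, Ccl9, Cxcl10, Ccr1, Ccr2, Cxcr3, Cxcr4, Cxcr5, Cxcr6 and Cx3cr1) and the same 2 higher (Cx3cl1 and Ccrl2).

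**Figure D1:**
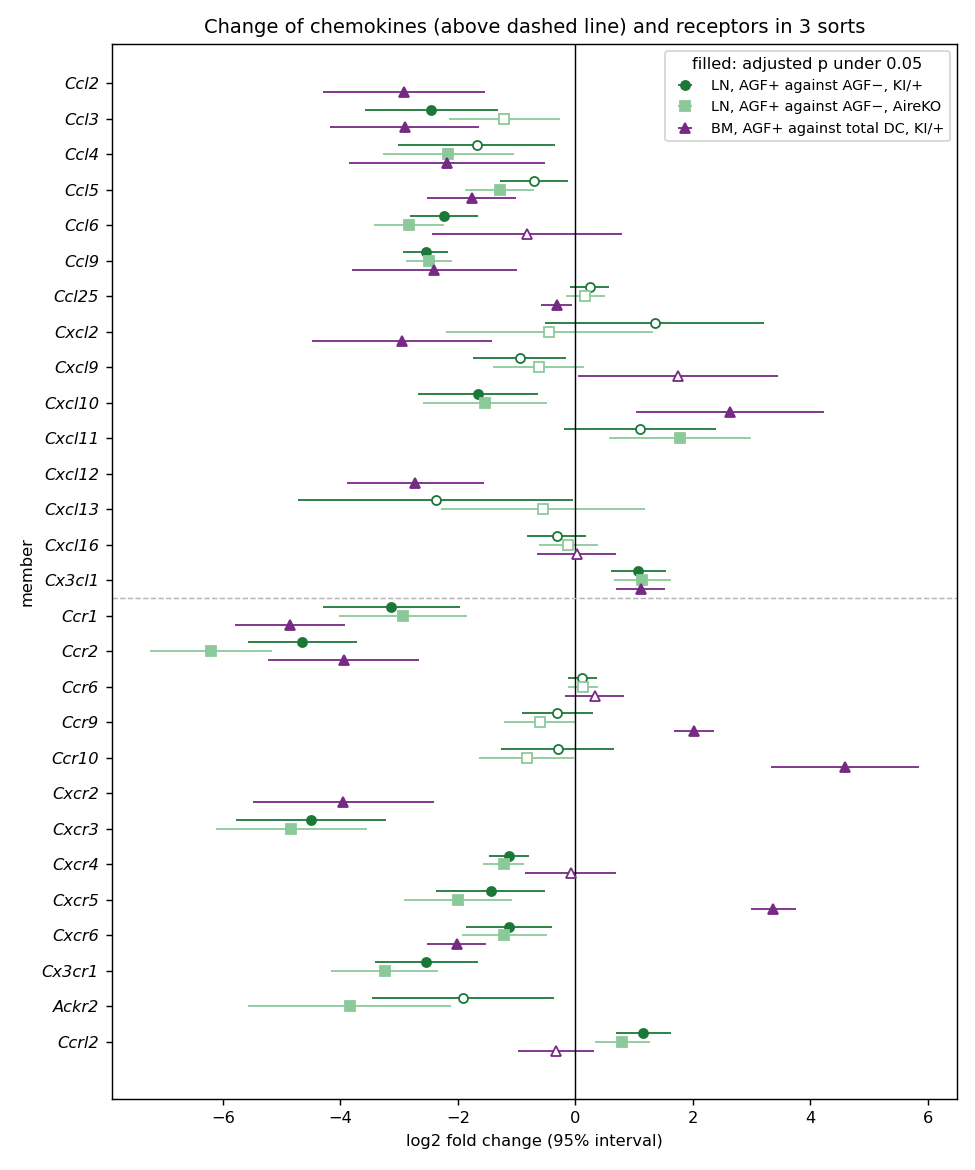
Log2 fold changes with 95% intervals of the members tested in at least 1 of 3 sorts, ligands above the dashed line and receptors below it; filled symbols have an adjusted p under 0.05. Ccl9, Ccr1, Ccr2 and Cxcr6 lie left of 0 in all 3 sorts, Cx3cl1 lies right of 0 in all 3, and Cxcl10 and Cxcr5 lie on opposite sides in LN and BM.

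Among the ligands of the CC family, Ccl9 and Ccl6, myeloid chemokines that act on CCR1, fell most evenly. Ccl9 was at 33.1, 30.5 and 34.4 CPM in AGF− KI/+ libraries and at 5.20, 5.62 and 5.89 CPM in AGF+ KI/+ libraries, and AireKO gave 29.7, 30.2 and 33.8 against 6.85, 4.22 and 5.33 CPM. All AGF+ libraries thus lay below all AGF− libraries, with the replicates of each group close together. Its log2 change was -2.55 ± 0.18 in KI/+ (edgeR adjusted p = 1.13e-06) and -2.50 ± 0.18 in AireKO (9.11e-07).

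Ccl6 stood at 24.6, 23.8 and 15.6 CPM in AGF− and at 3.78, 6.08 and 3.49 CPM in AGF+ KI/+ cells. In AireKO mice it was at 27.4, 20.4 and 29.1 CPM in AGF− and 4.35, 2.81 and 3.48 CPM in AGF+ cells. Again the groups did not overlap, and the changes were -2.24 ± 0.27 (edgeR adjusted p = 5.8e-05) and -2.83 ± 0.28 (7.93e-06). Ccl6, Ccl9, Ccl5, Ccl3 and Ccl4 lie within 1 cluster on chromosome 11.

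The inflammatory ligands Ccl3, Ccl4 and Ccl5 were low or passed in 1 genotype only. Ccl3 was at 3.55, 2.22 and 5.70 CPM in AGF− and 0.473, 1.06 and 0.436 CPM in AGF+ KI/+ cells, and at 4.67, 2.59 and 6.99 against 1.67, 2.01 and 2.46 CPM in AireKO. The AGF+ libraries were the lower ones in both genotypes without overlap. Its log2 change was -2.45 ± 0.53 in KI/+ (edgeR adjusted p = 0.00456) and -1.21 ± 0.44 in AireKO (adjusted p = 0.0621, 0.0343 with the replicate number as a block, 0.0469 without the libraries numbered 2, and 0.0221 without AGF− replicate 2 alone).

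Ccl5, at far higher levels, had 585, 399 and 523 CPM in AGF− and 385, 151 and 392 CPM in AGF+ KI/+ cells. AireKO gave 297, 370 and 413 CPM in AGF− and 136, 149 and 158 CPM in AGF+ cells. One KI/+ AGF+ library, replicate 2, lay at the AireKO level while the other two lay just under the AGF− range. The change passed in AireKO (-1.29 ± 0.27, edgeR adjusted p = 0.00341) but not in KI/+ (-0.70 ± 0.27, 95% interval -1.28 to -0.12, adjusted p = 0.0828, and 0.0316 with the block). Ccl4 likewise was called in AireKO (-2.16 ± 0.52, adjusted p = 0.0075) and not in KI/+ (-1.68 ± 0.62, adjusted p = 0.0702, and 0.0262 without the libraries numbered 2).

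Cxcl9 and Cxcl10, interferon-induced ligands of CXCR3, were both lower on average in LN AGF+ cells, and Cxcl10 passed the test. Cxcl10 was at 15.1, 21.4 and 21.3 CPM in AGF− and 3.0, 8.81 and 6.54 CPM in AGF+ KI/+ cells, and at 11, 7.60 and 25.1 against 2.34, 4.42 and 8.40 CPM in AireKO. The KI/+ groups were apart and the AireKO groups overlapped. The log2 changes were -1.66 ± 0.48 (edgeR adjusted p = 0.0238) and -1.54 ± 0.49 (adjusted p = 0.0346). The KI/+ call was lost without AGF+ replicate 1 or 3 or AGF− replicate 2 or 3 (0.061 to 0.0971), the AireKO call without AGF+ replicate 1 or 2 or AGF− replicate 3 (0.108 to 0.191), and both without the libraries numbered 2 (0.059 and 0.0683).

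Cxcl9 had 62.1, 54.3 and 57.9 CPM in AGF− and 23.2, 33.1 and 34.2 CPM in AGF+ KI/+ cells, and in AireKO AGF− cells it ranged from 33.4 to 110 CPM. The KI/+ groups did not overlap, yet its change of -0.95 ± 0.37 missed the threshold (edgeR adjusted p = 0.0856, and 0.0187 with the block). Cxcl11, the third CXCR3 ligand and annotated as a polymorphic pseudogene, went the other way at low counts, with 2.34, 2.41 and 2.46 CPM in AGF+ and 0.373, 0.346 and 1.36 CPM in AGF− AireKO cells (1.79 ± 0.57, adjusted p = 0.0326). It shares 41.7% of its exon bases with Gm2673 on the opposite strand, and without a stated strand setting in the counting, reads of the 2 genes cannot be told apart. That call was lost without any of 5 of the 6 libraries (all but AGF− replicate 3, 0.0789 to 0.109) and without all libraries numbered 2 (1.46, adjusted p = 0.216).

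Cx3cl1, the membrane-anchored ligand of CX3CR1 also called fractalkine, was the one ligand raised in both genotypes. It stood at 57.9, 43.5 and 71.3 CPM in AGF+ and 23.5, 28.9 and 29.2 CPM in AGF− KI/+ cells. AireKO gave 39.8, 39.1 and 57.4 CPM in AGF+ and 16, 26.3 and 19 CPM in AGF− cells. Every AGF+ library lay above every AGF− library, and the changes were 1.08 ± 0.22 (edgeR adjusted p = 0.00355) and 1.14 ± 0.23 (adjusted p = 0.0021).

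Its receptor gene Cx3cr1, a marker of monocyte-derived and certain DC lineages, moved the opposite way. AGF− KI/+ libraries had 81.7, 52.5 and 66.8 CPM and AGF+ KI/+ libraries 11.8, 9.42 and 13.5 CPM. In AireKO the values were 136, 63.8 and 54.0 CPM in AGF− and 15, 7.43 and 3.69 CPM in AGF+ cells. The AGF+ cells were the lower ones without overlap, at log2 changes of -2.54 ± 0.41 (edgeR adjusted p = 0.000644) and -3.24 ± 0.42 (9.32e-05).

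Ccr2, the receptor of CCL2 and a mark of monocytes and DC precursors, gave the largest difference of all members. It was at 163, 138 and 163 CPM in AGF− and 2.36, 8.66 and 7.63 CPM in AGF+ KI/+ cells, and at 240, 103 and 256 against 4.51, 2.01 and 1.23 CPM in AireKO. The groups were far apart in both genotypes, with changes of -4.65 ± 0.43 (edgeR adjusted p = 8.74e-06) and -6.21 ± 0.48 (1.45e-06). The change was larger in AireKO at an unadjusted level only (difference -1.56 ± 0.66, adjusted p = 1.00).

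Ccr1, the receptor of CCL6 and CCL9 among others, was scarce in LN. Its levels were 6.21, 6.86 and 5.07 CPM in AGF− and 0.315, 1.52 and 0 CPM in AGF+ KI/+ cells, and 6.72, 7.95 and 8.94 against 1.00, 1.41 and 0.615 CPM in AireKO. AGF+ cells were lower without overlap (-3.13 ± 0.54, edgeR adjusted p = 0.00108, and -2.93 ± 0.51, 0.000807).

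Cxcr3, the receptor of CXCL9 and CXCL10 and a mark of effector T, NK and plasmacytoid cells, was nearly absent from AGF+ cells. In KI/+ mice it was at 16.6, 11.1 and 16.5 CPM in AGF− and 1.26, 0.152 and 0.436 CPM in AGF+ libraries, and in AireKO mice at 30.0, 7.78 and 18.5 against 0.501, 0.401 and 1.02 CPM. The changes were -4.51 ± 0.60 (edgeR adjusted p = 0.000135) and -4.84 ± 0.60 (6.03e-05). Cxcr3 lies on the X chromosome, and its AGF− libraries numbered 2 were the lowest in both genotypes. Those libraries also had the lowest T and NK cell marker sums of their groups, at 86.6 CPM in KI/+ and 138 CPM in AireKO. The part of the X chromosome or of T and NK cells in Cxcr3 was not tested.

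Cxcr4 was at 150, 146 and 119 CPM in AGF− and 77.1, 51.8 and 61.1 CPM in AGF+ KI/+ cells, and at 95.4, 127 and 100 against 43.3, 46.8 and 48.6 CPM in AireKO. The groups were separate in each genotype, at changes of -1.13 ± 0.16 (edgeR adjusted p = 0.000232) and -1.22 ± 0.16 (0.000102).

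Cxcr5, the follicle-homing receptor of CXCL13, had 12.2, 26.4 and 14.2 CPM in AGF− and 9.93, 3.80 and 5.67 CPM in AGF+ KI/+ cells, with 19, 21.1 and 35.9 against 4.85, 3.61 and 10.7 CPM in AireKO. AGF+ cells were the lower ones, by -1.44 ± 0.43 (edgeR adjusted p = 0.0293) and -2.0 ± 0.43 (0.00374). The KI/+ call went without AGF+ replicate 2 or 3 or AGF− replicate 2 (0.0932 to 0.143), and without the libraries numbered 2 its change was -0.74 (adjusted p = 0.323).

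Cxcr6, the receptor of CXCL16 and a mark of resident lymphocytes, was at 28.2, 13.7 and 40.6 CPM in AGF− and 12.6, 10.9 and 14.2 CPM in AGF+ KI/+ cells, where the ranges overlapped. In AireKO it was at 41.6, 18.8 and 36.1 against 14.9, 12.8 and 13.9 CPM, without overlap. The changes were -1.13 ± 0.34 (edgeR adjusted p = 0.0303) and -1.21 ± 0.34 (0.0173). Leaving out AGF+ replicate 1, 2 or 3 or AGF− replicate 1 or 3 ended the KI/+ call (0.0594 to 0.178), and AGF+ replicate 2 or 3 or AGF− replicate 1 the AireKO call (0.0519 to 0.0647).

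Ccrl2, an atypical receptor that binds chemerin and does not signal through G proteins, was the one member receptor higher in LN AGF+ cells. It had 36.7, 50.1 and 55.8 CPM in AGF+ and 18, 22.6 and 23.0 CPM in AGF− KI/+ cells, and 32.8, 48.8 and 42.4 against 16.8, 27.0 and 27.0 CPM in AireKO. All AGF+ libraries were above all AGF− ones, by 1.16 ± 0.22 (edgeR adjusted p = 0.0019) and 0.80 ± 0.22 (0.0138). The AireKO call was lost without AGF+ replicate 2 (0.0731), AGF− replicate 1 (0.0523) or all libraries numbered 2 (0.101). Ackr2, a scavenger of inflammatory CC chemokines, was below 6 CPM throughout and passed only in AireKO (-3.84 ± 0.81, edgeR adjusted p = 0.00307, against -1.91 ± 0.72 and 0.0783 in KI/+, or 0.0431 with the block).

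**Figure D2:**
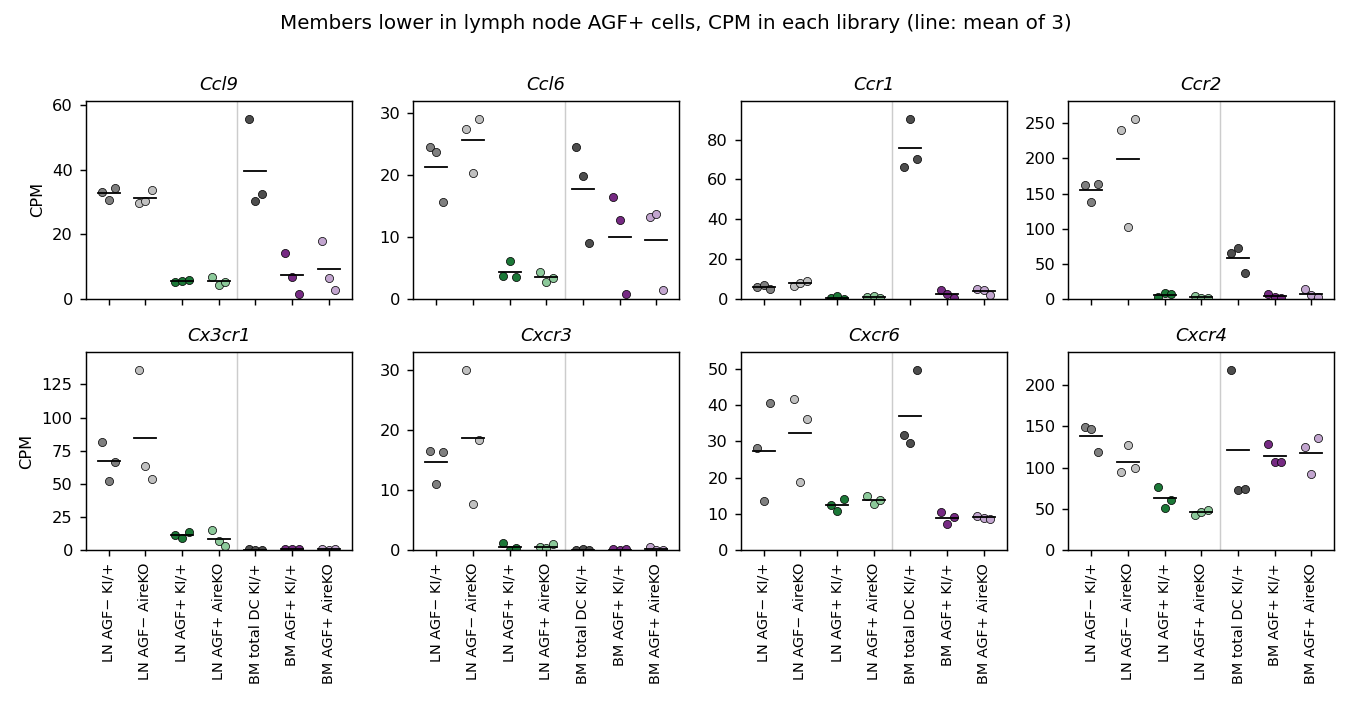
CPM of 8 members in each of the 21 libraries, 1 point per library and a line at the mean of 3, on linear axes from 0 that differ between panels; the grey line divides LN from BM groups. In LN the green AGF+ points lie below the grey AGF− points for Ccl9, Ccl6, Ccr1, Ccr2, Cx3cr1, Cxcr3 and Cxcr4, and Cxcr6 overlaps in KI/+.

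Several members at substantial levels did not pass in either LN sort. Ccr6, the CCL20 receptor, had 48.6, 52.5 and 50.3 CPM in AGF− and 57.4, 53.8 and 53.7 CPM in AGF+ KI/+ cells (0.12 ± 0.12, 95% interval -0.13 to 0.38). Ccl25, the ligand of CCR9, was at 34.0, 34.7 and 34.6 against 35.5, 48.5 and 38.4 CPM (0.24 ± 0.16, -0.09 to 0.58). Both genes were nearly level between the sorts.

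Ccr9, the gut-homing receptor also found on plasmacytoid DCs, ranged from 53.7 to 98.7 CPM in AGF− and from 57.1 to 75.4 CPM in AGF+ KI/+ cells (-0.31 ± 0.28, 95% interval -0.91 to 0.30). Cxcl16 ranged from 483 to 550 against 280 to 487 CPM (-0.31 ± 0.23, -0.82 to 0.19). Cxcl13, the CXCR5 ligand, was spread from 0.222 to 7.18 CPM in AGF− and from 0.304 to 0.873 CPM in AGF+ cells (-2.38 ± 1.09, edgeR adjusted p = 0.147). Cxcl2 and Ccr10 also missed the threshold in both genotypes.

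Markers of other cells moved with the LN sort in the same direction as most members. Of 12 T and NK cell markers, the summed level was 86.6 to 476 CPM in AGF− and 13.1 to 24.4 CPM in AGF+ KI/+ cells, with Ncr1 and Gzmb at 0 in the latter. The 10 monocyte and macrophage markers summed to 1878 to 2122 against 406 to 534 CPM and the 9 B cell markers to 331 to 730 against 65.7 to 96.0 CPM, with none at 0 in either sort. In AireKO mice the same sums were 138 to 834 against 11.9 to 38.5 CPM for T and NK cells, 2002 to 2675 against 284 to 659 CPM for monocytes and macrophages and 473 to 1013 against 74.7 to 90.6 CPM for B cells. Of the 8 plasmacytoid DC markers 5 were lower in KI/+ and 6 in AireKO (median log2 change -2.81 and -3.17), and 5 of 8 markers of the cDC1 subset were lower in each genotype (-2.01 and -2.26) with 1 higher in AireKO. The 7 plasmacytoid DC markers apart from Ccr9 summed to 461 to 705 CPM in AGF− and 334 to 381 CPM in AGF+ KI/+ cells, and to 547 to 1080 against 349.5 to 389.6 CPM in AireKO. The cDC1 sums were 547 to 1026 against 319 to 429 CPM in KI/+ and 594 to 1035 against 291 to 318 CPM in AireKO, and neither list had a gene at 0. The 8 markers of the cDC2 subset summed to 884 to 1087 against 664 to 783 CPM in KI/+. In AireKO they summed to 920 to 1193 against 652 to 689 CPM. All marker sums given here and below add CPM without scaling by length, so genes with the most counts weigh most. Over all 21 libraries Tcf4 had 61422 counts, and Bst2, next of the 7 plasmacytoid DC genes, had 7718. Among the cDC1 genes Irf8 led with 29837 counts, and among the cDC2 genes Sirpa and Irf4 with 40897 and 31298. Sums of the mature DC markers overlapped between the sorts in both genotypes. Of 7 stromal and endothelial markers 2 were tested and both were lower, with sums of 89.0 to 117 against 25.7 to 27.7 CPM in KI/+ and 105 to 139 against 22.9 to 28.1 CPM in AireKO, and with Pdpn at 0 in all 4 LN groups. The part of all these cells in the lower levels of Ccr2, Cx3cr1, Cxcr3, Cxcr5 and Cxcr6 was not tested. KI/+ AGF− replicate 2, lowest of its group in the T and NK sum, was also lowest in Cxcr3 and Cxcr6, and highest in the B cell sum and in Cxcr5. The same library was highest in the monocyte and macrophage sum but lowest in Ccr2 and Cx3cr1. AireKO AGF− replicate 2 was lowest in the T and NK sum, Cxcr3, Cxcr6, the monocyte and macrophage sum and Ccr2, but not in Cx3cr1.

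Other genes of the pathway were read from 4 lists. Of the 20 remaining chemokines, 5 could be tested in LN, and 1 was lower in each genotype: Xcl1, made by NK and T cells, was at least 34.9-fold lower in AGF+ than in AGF− KI/+ cells (0 against 85 counts over 3 libraries). Of the 9 remaining receptors, 8 were tested, with 1 higher (Ackr1, 0.81 and 0.95) and the same number of 5 lower in each genotype. Ccr4 was at 1 count against 21 in KI/+, a ratio of 25.9 with a 95% counting interval of 4.17 to 1071. Of 22 signalling genes, 21 were tested and 4 in KI/+ and 7 in AireKO were called, all as lower, led by the G protein regulators Rgs14 (-1.66 and -1.88) and Rgs2 (-1.64 and -1.88). That is 19% and 33.3% of those tested, beside 21.1% and 24.7% of all genes, so that the KI/+ count is near the background. Of 7 genes for cleavage and shedding of chemokines, 6 were tested, and Mmp14, Ctsc and Adam17, the sheddase of CX3CL1 and CXCL16, were lower in both genotypes (Adam17 -0.50 and -0.39), while Dpp4 was higher in AireKO (0.49).

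Loss of the second Aire allele moved no member past the threshold. In LN AGF+ cells 0 of 25 members were called by edgeR's quasi-likelihood test, where 0.0126% of all genes were, with 5 under an unadjusted p of 0.05 (Ccl3, Ccl5, Cxcl13, Cxcl16 and Cxcr4), and DESeq2 also called 0, with 6 unadjusted. In LN AGF− cells it was 0 of 25 (background 0.0063%; 4 unadjusted, DESeq2 0 and 4), and in BM AGF+ cells 0 of 23 (background 0.0129%; 1 unadjusted, DESeq2 0 and 1). By edgeR, the members under an unadjusted p of 0.05 were 20%, 16% and 4.35% of those tested in these 3 comparisons. Among all genes tested the shares were 3.67%, 5.97% and 1.67%. The median log2 change of the members was -0.05, 0.21 and 0.02 in the 3 comparisons.

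Ccl5 came nearest in LN AGF+ cells, with the values given above: 385, 151 and 392 CPM for KI/+ against 136, 149 and 158 CPM for AireKO. The groups overlapped through KI/+ replicate 2 (-1.08 ± 0.27, 95% interval -1.67 to -0.49, edgeR adjusted p = 0.967), and without that library the change was -1.41 with an adjusted p of 0.00602. The mature DC marker sum was also lowest in KI/+ replicate 2 among the KI/+ libraries, at 4483, 2588 and 3761 CPM in replicates 1 to 3. AireKO replicates 1 to 3 had sums of 2612, 2724 and 3541 CPM. AireKO replicate 3 was thus close to KI/+ replicate 3 in this sum, while all AireKO libraries had at most 158 CPM of Ccl5. The part of these markers in the result was not tested.

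Cxcr4 in the same cells was lower in AireKO in every library (43.3 to 48.6 against 51.8 to 77.1 CPM), by -0.47 ± 0.16 with a 95% interval of -0.82 to -0.12 (edgeR adjusted p = 0.967). Ccl3 was higher in every AireKO library (1.67, 2.01 and 2.46 against 0.473, 1.06 and 0.436 CPM), at few counts. In BM AGF+ cells Ccr9 had 118, 92.5 and 98.1 CPM in the KI/+ libraries against 79.6, 80.1 and 70.1 CPM in those of AireKO, without overlap (-0.42 ± 0.15, adjusted p = 1.00). None of these passed once adjusted over all genes. The tests of whether genotype acted differently by sort or by tissue called 0 of 25 and 0 of 28 members (background 0.0063% and 0%). DESeq2 called 0 and 0. At an unadjusted p under 0.05 there were 1 and 2 members with edgeR, and 1 and 2 with DESeq2. By edgeR that was 4% and 7.14% of members tested, beside 1.64% and 2.64% of all genes.

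In bone marrow the reporter population differed from total DCs in 17 of 23 members tested, 5 higher and 12 lower, where 44.4% of all 15503 genes were called, 22.8% higher and 21.6% lower. The members' median log2 change was -0.82, beside 0.02 over all genes. Of 13 ligands 2 were higher and 8 lower, and of 10 receptors 3 were higher and 4 lower. Ccl9, Ccr1, Ccr2 and Cxcr6 were lower in all 3 sorts and Cx3cl1 was higher in all 3, while Cxcl10 and Cxcr5, lower in both LN sorts, were higher here.

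Ccr1 and Ccr2 showed some of the largest falls. Ccr1 was at 66.1, 90.4 and 70.5 CPM in total DCs and 4.69, 2.68 and 0.535 CPM in AGF+ cells (-4.85 ± 0.43, edgeR adjusted p = 1.03e-05). Ccr2 was at 65.9, 72.8 and 36.7 against 6.93, 3.25 and 1.25 CPM (-3.95 ± 0.58, 0.000298). Total DCs were high and AGF+ cells low in every library for both receptors. Cxcr2, the neutrophil receptor of CXCL1 and CXCL2, followed them, with 32.4, 58.8 and 72.4 against 5.71, 4.79 and 0.178 CPM (-3.95 ± 0.70, 0.000966).

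Cxcr6 was at 31.8, 29.5 and 49.6 CPM in total DCs and 10.6, 7.28 and 9.27 CPM in AGF+ cells, again without overlap (-2.02 ± 0.23, edgeR adjusted p = 5.1e-05). Cxcr4 gave no such order: total DC replicate 1 had 218 CPM and the other two 73.0 and 73.9 CPM, while AGF+ cells had 129, 106 and 107 CPM. Its change was -0.08 ± 0.35 (adjusted p = 0.875), and without total DC replicate 1 it turned to 0.64 with an adjusted p of 0.00915. That library also had the most Ccl5, Cxcl16 and Cx3cl1 of its group and a mature DC marker sum of 6006 CPM against 4016 and 4149 CPM, whose part was not tested.

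The ligands lower in BM AGF+ cells were mostly CC chemokines. Ccl5 was at 278, 154 and 166 CPM in total DCs and 84.2, 53.4 and 36.4 CPM in AGF+ cells (-1.77 ± 0.35, edgeR adjusted p = 0.00177). Ccl9 was at 55.7, 30.3 and 32.4 against 14.3, 6.70 and 1.43 CPM (-2.41 ± 0.64, 0.0102, and 0.0891 without the libraries numbered 2). The AGF+ libraries were low in each case, with replicate 3 lowest. Ccl6 shared that spread, at 24.5, 19.9 and 9.07 against 16.5, 12.8 and 0.892 CPM, and was not called (-0.82 ± 0.74, 0.392, and 0.0324 with the block at -1.03).

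Ccl2, the main CCR2 ligand, was at 9.38, 11.3 and 18.1 CPM in total DCs and 4.08, 0.766 and 0.357 CPM in AGF+ cells (-2.92 ± 0.63, edgeR adjusted p = 0.00314, and 0.0526 without the libraries numbered 2). Ccl3 was at 4.48, 12.9 and 14.7 against 1.22, 2.30 and 0.713 CPM (-2.90 ± 0.58, 0.00192). Cxcl12, the CXCR4 ligand best known from marrow stroma, was at 18.6, 13.7 and 10.8 against 4.08, 2.30 and 0.178 CPM (-2.73 ± 0.53, 0.00169). None of the 3 overlapped between the populations.

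Among the less abundant ligands, Ccl4 passed by a narrow margin (-2.18 ± 0.76, edgeR adjusted p = 0.0359) and lost the call without total DC replicate 2 or 3 or AGF+ replicate 1 or 3 (0.0558 to 0.106). Cxcl2 was lower (-2.96 ± 0.70, 0.00542, and 0.0893 without the libraries numbered 2). Ccl25 was at 51.6, 46.3 and 48.3 CPM in total DCs and 40.4, 38.7 and 37.3 CPM in AGF+ cells, a small but even difference (-0.32 ± 0.12, 0.0467) that no longer passed when any single library was left out (0.0678 to 0.121) or all those numbered 2 (0.22).

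The ligands that were higher were Cx3cl1 and Cxcl10. Cx3cl1 stood at 123, 108 and 86.0 CPM in BM AGF+ and 64.2, 45.3 and 38.4 CPM in total DCs (1.12 ± 0.19, edgeR adjusted p = 0.000703), a change of nearly the size seen in LN. Cxcl10 was at 7.34, 20.9 and 7.49 CPM in AGF+ and 1.92, 2.05 and 1.74 CPM in total DCs (2.64 ± 0.73, 0.0124, and 0.0585 without AGF+ replicate 2). Its neighbour Cxcl9 was at 21.6, 43.3 and 12.3 against 4.91, 14.8 and 3.47 CPM, with overlap (1.74 ± 0.77, 0.0885). That gene was called with the block (0.00174), in the fit of all 21 libraries (0.0419), without total DC replicate 2 (0.0433) and without all libraries numbered 2 (0.017). AGF+ replicate 2 was the highest library for both genes, as it was in AireKO AGF+ cells, where Cxcl10 was at 3.57, 22.2 and 5.35 CPM.

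The member receptors higher in BM AGF+ cells were Cxcr5, Ccr9 and Ccr10. Cxcr5 was at 36.7, 38.9 and 35.8 CPM in AGF+ and 3.63, 3.69 and 3.47 CPM in total DCs (3.37 ± 0.17, edgeR adjusted p = 3.8e-07). Ccr9 was at 118, 92.5 and 98.1 against 28.4, 27.5 and 21 CPM (2.02 ± 0.16, 4.51e-06). Ccr10, a receptor for skin chemokines that is also carried by antibody-secreting cells, was at 5.30, 8.81 and 7.13 against 0.640, 0.205 and 0 CPM (4.59 ± 0.57, 9.87e-05). AGF+ libraries lay above total DC libraries for all 3, and Ccr9 shares 18.8% of its exon bases with AC165425.1 on the opposite strand.

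**Figure D3:**
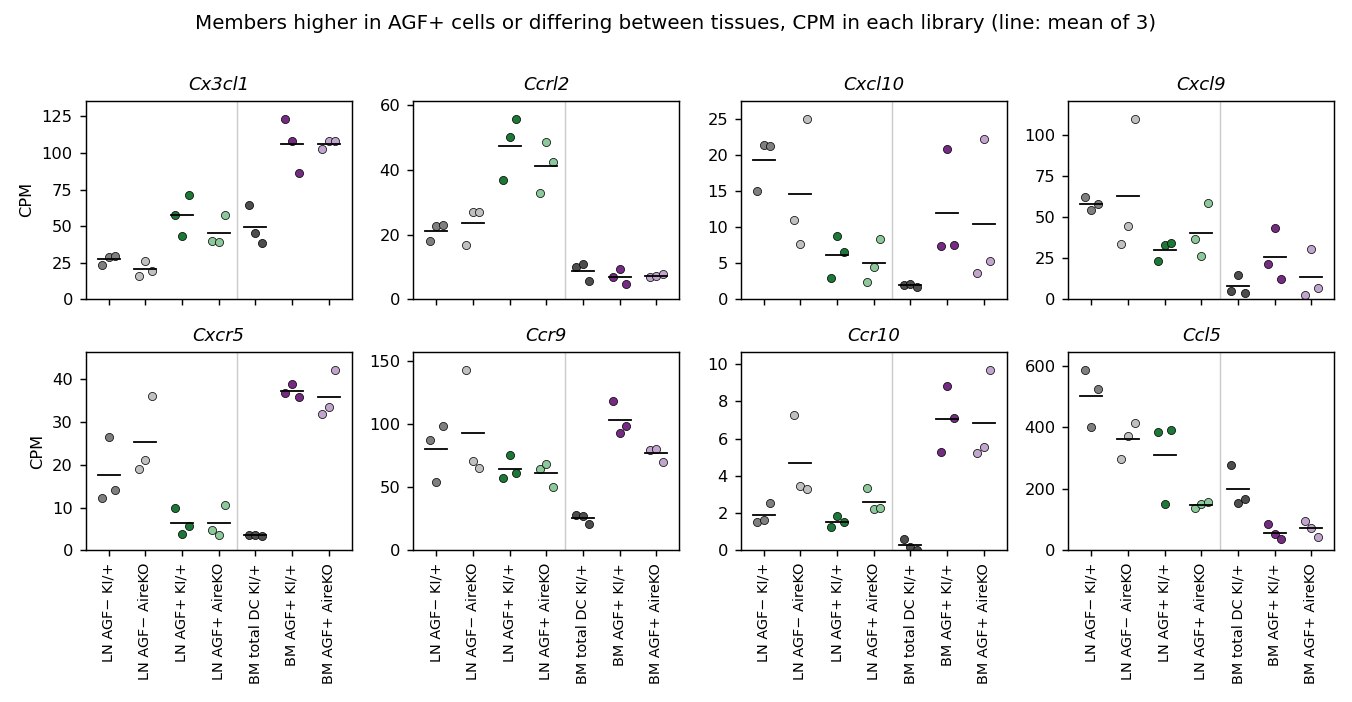
CPM of 8 members in each of the 21 libraries, 1 point per library and a line at the mean of 3, on linear axes from 0 that differ between panels; the grey line divides LN from BM groups. Cx3cl1 is higher in AGF+ cells of both tissues and Ccrl2 in LN alone, and Cxcr5, Ccr9 and Ccr10 rise from total DCs to AGF+ cells in BM while Cxcr5 is lower in LN AGF+ than in AGF− cells.

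Markers of other cells moved with the BM comparison too. The 10 monocyte and macrophage markers summed to 1183 to 1635 CPM in total DCs and 130 to 222 CPM in AGF+ KI/+ cells, and the 8 neutrophil markers to 120, 9.22 and 16.2 CPM in total DC replicates 1 to 3 against 0.574 to 6.93 CPM, with Retnlg at 0 in total DCs and Elane and Camp at 0 in AGF+ cells. In the other direction, 7 plasmacytoid DC markers apart from Ccr9 summed to 539 to 634 against 1221 to 1403 CPM, 9 B cell markers to 27.4 to 39.0 against 215 to 262 CPM, and 12 T and NK markers to 15.1 to 31.0 against 89.5 to 131 CPM (Trbc2 and Ncr1 at 0 in both). Over all 21 libraries Tcf4 had the most counts of the 7 plasmacytoid DC genes, and Il2rb (4247) and Gzmb (3190) of the 12 T and NK genes. The genes that carried each sum in BM are not given, and the sums do not show which cells were present. Markers of conventional DC subsets differed as well. The 8 cDC2 markers summed to 1529 to 1745 CPM in total DCs against 589 to 726 CPM in AGF+ cells. The 8 cDC1 markers summed to 509 to 722 against 313 to 487 CPM. Mature DC marker sums overlapped, at 4016 to 6006 against 5666 to 6730 CPM. The part of all these cells in the levels of Ccr1, Ccr2, Cxcr2, Cxcr5 and Ccr9 was not tested. BM AGF+ replicate 3, lowest in Ccr1, Ccr2, Cxcr2, Ccl9 and Cxcl12, had the lowest monocyte sum of its group, at 130 CPM beside 167 and 222 CPM. Total DCs gave a mixed order. Their replicate 2, with the highest monocyte sum at 1635 CPM, was highest in Ccr1 and Ccr2 but lowest in Ccl9. Total DC replicate 1, with the highest neutrophil sum, was lowest in Cxcr2.

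Of the other pathway genes in BM, 3 of 5 remaining chemokines tested were lower, led by Cxcl3 (-4.42) and Ccl24 (-1.62), and none passed as higher. Of 7 remaining receptors tested, 3 were lower, Cmklr1 (-3.21) among them, and 2 higher: Ccr4 (2.52) and Ackr1, whose 55 counts against 2 gave a ratio of 25.8 with a counting interval of 6.81 to 218. Of 21 signalling genes tested 13 were lower, led by Rgs18 (-2.14) and Arrb1 (-2.02), and 3 higher, Grk2 (0.57) and Rac2 (0.55) the most, together 76.2% of those tested beside 44.4% of all genes. All 6 cleavage and shedding genes tested were lower, from Ctss (-1.44) and Mmp14 (-1.19) to Adam10 (-0.32).

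Between AGF+ cells of the tissues, compared as LN against BM, 7 members were higher and 7 lower of 28 tested in KI/+, where 54.2% of all 17265 genes were called, 27.2% higher and 27.1% lower. In AireKO 6 were higher and 7 lower, against 51.4% of all genes, 25.7% higher and 25.7% lower. The share of members was thus near or below that of all genes. The median log2 change of the members was -0.16 in both genotypes.

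Ccrl2 and Cx3cr1 were the member receptors higher in LN in both genotypes. Ccrl2 had 36.7, 50.1 and 55.8 CPM in LN and 6.73, 9.38 and 4.64 CPM in BM AGF+ KI/+ cells (2.78 ± 0.27, edgeR adjusted p = 3.51e-08), and 6.95, 7.26 and 7.64 CPM in BM AireKO cells, so that LN was far above BM in both genotypes. Cx3cr1 was at 11.8, 9.42 and 13.5 CPM in LN and 1.02, 0.957 and 0.713 CPM in BM KI/+ cells (3.66 ± 0.55, 1.35e-05). Ccr6 was slightly higher in LN (0.52 ± 0.18, 0.0188 in KI/+; 0.40 ± 0.18, 0.0724 in AireKO), and without LN replicate 1 or BM replicate 1 or 2 the KI/+ call was lost (0.0543 to 0.0704).

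Cxcr5, Cxcr4 and Ccr10 were higher in BM AGF+ cells in both genotypes. Cxcr5 gave -2.51 ± 0.36 in KI/+ (edgeR adjusted p = 6.1e-06) and -2.50 ± 0.36 in AireKO (8.95e-06), with 31.9, 33.5 and 42.0 CPM in the BM AireKO libraries. Ccr10 gave -2.18 ± 0.41 (0.000144) and -1.35 ± 0.39 (0.00659). Cxcr4 gave -0.85 ± 0.29 (0.0184) and -1.35 ± 0.30 (0.000772), where LN replicate 2 or BM replicate 1 decided the KI/+ call (0.0737 and 0.0558 without them). For all 3 the LN libraries lay below the BM libraries.

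Ccr9 was lower in LN in KI/+ (-0.67 ± 0.24, edgeR adjusted p = 0.0248) but not called in AireKO (-0.32 ± 0.25, 0.281), and its KI/+ call was lost without LN replicate 1 or 3 or BM replicate 1 (0.0682 to 0.0845). Ccr1 and Cxcr2 were both lower in LN in each genotype, at low levels, and the libraries overlapped except for Ccr1 in AireKO. The KI/+ Ccr1 call was lost without LN replicate 1 or 3 or BM replicate 1 (0.0697 to 0.178), and the Cxcr2 calls without LN replicates 1, 2 or 3 or BM replicates 1 or 2 in KI/+ (0.0523 to 0.165) and without BM replicate 1 in AireKO (0.133). The KI/+ Cxcr2 call was also lost with library size alone (0.0553), with DESeq2's Wald test (0.0698) and with the block (0.0618), in all under 9 of 12 alternatives.

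Ccl5 and Cx3cl1 differed most clearly among the ligands. Ccl5 was higher in LN, at 385, 151 and 392 CPM against 84.2, 53.4 and 36.4 CPM in BM KI/+ cells (2.42 ± 0.35, edgeR adjusted p = 6.82e-06) and at 136, 149 and 158 against 96.0, 74.4 and 43.8 CPM in AireKO (1.04 ± 0.34, 0.0135, and 0.0896 without BM replicate 3). Cx3cl1 was higher in BM, where the AireKO libraries had 103, 108 and 108 CPM (-0.88 ± 0.21, 0.00145 in KI/+; -1.23 ± 0.21, 7.79e-05 in AireKO). In neither gene did the tissues overlap. Cxcl16 was higher in LN in KI/+ (1.13 ± 0.30, 0.00301) and was not called in AireKO. It shares 18.3% of its exon bases with Zmynd15 on the opposite strand.

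The remaining ligand calls rest on few counts. Cxcl13 had 0 counts in all 9 BM libraries, and the LN AGF+ cells of AireKO mice, at 0.501, 3.41 and 6.97 CPM, were at least 15.8-fold higher than a floor of 3 counts over the BM group (edgeR adjusted p = 0.00786). In KI/+ the bound was at least 3.0-fold and the test was not passed (0.153). Ccl2 was 16.3-fold lower in LN AireKO cells, with a counting interval of 5.22 to 82.2 (0.0089, and 0.0706 without BM replicate 1). Cxcl11 was higher in LN in both genotypes (2.49 ± 0.81 and 2.67 ± 0.75). Its KI/+ call was lost without LN replicate 2 or BM replicate 1 or 3 (0.0581 to 0.0638).

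Cxcl9 and Cxcl2 were each called in 1 genotype. Cxcl9 was higher in LN in AireKO with overlap (1.61 ± 0.62, edgeR adjusted p = 0.0358), a call lost without LN replicate 1 or 3 or BM replicate 1 or 3 (0.0584 to 0.167). Cxcl2 was higher in KI/+ (2.35 ± 0.94, 0.04), a call lost without LN replicate 2 or 3 or BM replicate 2 or 3 (0.0856 to 0.158). Ccl3, Ccl4, Ccl6, Ccl9, Ccl25, Cxcl10, Cxcl12, Ccr2, Cxcr3, Cxcr6 and Ackr2 passed in neither genotype. Of these, Ccl6 was called as lower in LN without BM replicate 3 (0.0097 in KI/+ and 0.0143 in AireKO), and Cxcl12 without BM replicate 3 in KI/+ (0.0253) and LN replicate 3 in AireKO (0.0138). Ccr2 was called as lower in AireKO without LN replicate 1 or BM replicate 2 or 3 (0.0218 to 0.0488), Ccl4 as higher in AireKO without BM replicate 2 (0.0137), and Ackr2 as higher in KI/+ without BM replicate 1 (0.0431). Without the libraries numbered 2, the calls of Ccr6 (0.0504), Cxcr4 (0.0818), Cxcr2 (0.297) and Cxcl2 (0.211) in KI/+ and of Ccr10 (0.0569), Cxcr2 (0.0696) and Cxcl13 (0.0531) in AireKO were lost.

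**Figure D4:**
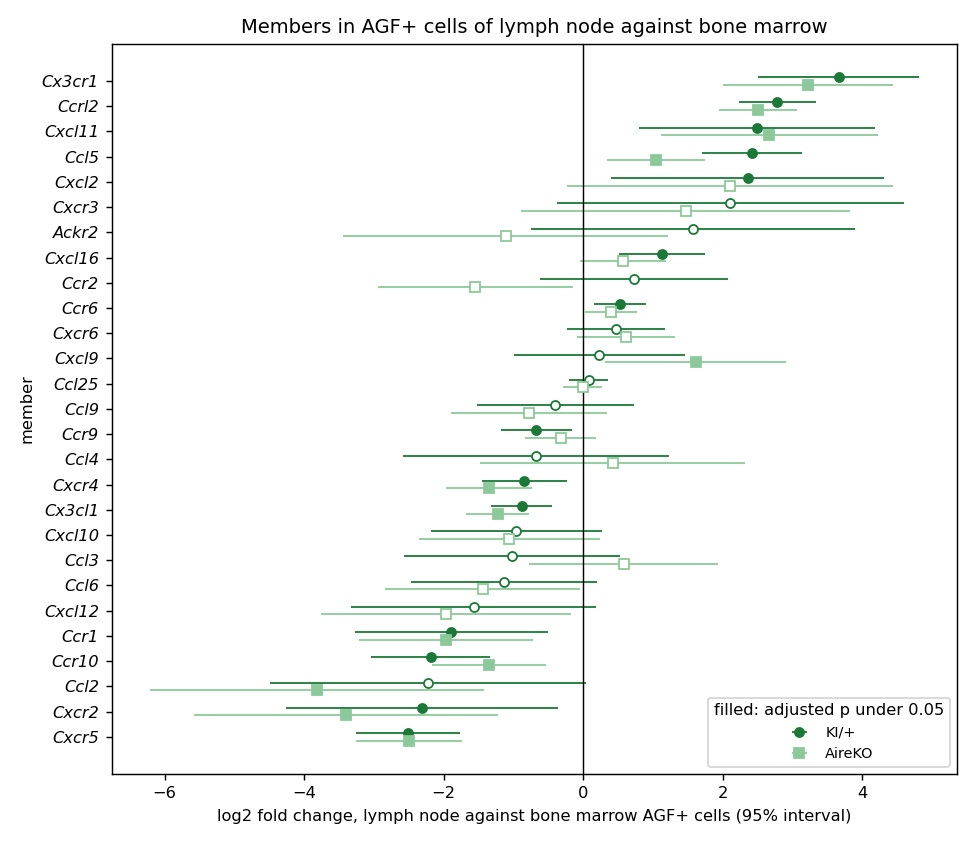
Log2 fold changes with 95% intervals of 27 members between LN and BM AGF+ cells, positive values being higher in LN; filled symbols have an adjusted p under 0.05. Cxcl13 is left out because BM had 0 counts, and in both genotypes Cx3cr1, Ccrl2 and Cxcl11 have the 3 highest values and Cxcr5, Cxcr2 and Ccl2 the 3 lowest.

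Markers of other cells differed between AGF+ cells of the tissues too. All 8 plasmacytoid DC markers were lower in LN in KI/+ and 7 in AireKO, and the 7 apart from Ccr9 summed to 334 to 381 CPM in LN and 1221 to 1403 CPM in BM KI/+ cells. The sums in LN and BM were 65.7 to 96.0 against 215 to 262 CPM for B cells, 13.1 to 24.4 against 89.5 to 131 CPM for T and NK cells, 406 to 534 against 130 to 222 CPM for monocytes and macrophages, and 0.608 to 1.31 against 0.574 to 6.93 CPM for neutrophils. In AireKO they were 349.5 to 389.6 against 1279 to 1391 CPM for plasmacytoid DCs, 74.7 to 90.6 against 211 to 275 CPM for B cells, 11.9 to 38.5 against 109 to 154 CPM for T and NK cells, and 284 to 659 against 170 to 273 CPM for monocytes and macrophages. Among the T and NK genes of KI/+ cells, Ncr1 and Gzmb were at 0 in LN and Trbc2 and Ncr1 in BM, and in AireKO cells Gzmb was at 0 in LN and Trbc2, Klrb1c and Ncr1 in BM. The neutrophil sums in AireKO were 0.201 to 1.02 against 0.51 to 7.70 CPM, and S100a8 and S100a9 were at 0 in LN AGF+ cells of both genotypes. Mature DC markers summed to 2588 to 4483 CPM in LN against 5666 to 6730 CPM in BM KI/+ cells. In AireKO their sums were 2612 to 3541 against 6268 to 6795 CPM. The cDC2 sums overlapped in both genotypes, and the cDC1 sums in KI/+ alone. The part of all these cells in the levels of Cxcr5, Ccr9, Ccr10, Cx3cr1 and Cxcr2 was not tested.

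Among the other pathway genes, the chemokines Ccl24 and Ccl17, T cell and eosinophil attractants, were the most strongly lower in LN AGF+ cells (-9.49 and -6.00 in KI/+, with 5 counts of Ccl24 in LN), with 4 of 7 tested lower and 1 higher in each genotype: Rarres2, the chemerin gene, in KI/+ (41 counts against 3, a ratio of 12.3 with a counting interval of 3.92 to 62.0), and Ccl8 in AireKO (at least 7.91-fold). Of 8 remaining receptors tested, 2 were lower and 3 higher in each genotype. Ccr4 was at 1 count in LN against 867 in BM KI/+ cells, and Ccr7 fell by 1.5 ± 0.31, while Xcr1 (3.84) and Ackr1 (2.56) led the higher ones. Of 21 signalling genes 7 were higher and 5 lower in KI/+, 57.1% beside 54.2% of all genes, led by Gng2 (1.45), Rgs18 (1.41), Gnai3 (-1.46) and Pik3r5 (-1.04), and of 6 cleavage genes 4 were higher, led by Dpp4 (1.56) and Mmp14 (0.78), and Adam10 was lower (-0.63).

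The sort difference itself was compared between LN and BM in KI/+ mice, as AGF+ against AGF− cells in LN minus AGF+ cells against total DCs in BM. Of 28 members 9 were called, 3 higher and 6 lower, against 21% of all genes, 9.75% higher and 11.2% lower. The LN and BM controls passed through different gates. Cxcr5 differed by -4.80 ± 0.54 (edgeR adjusted p = 2.48e-06), having been lower in LN and higher in BM AGF+ cells, and Cxcl10 by -4.29 ± 0.91 (0.00185) in the same way. Ccr10 and Ccr9 differed by -4.89 ± 0.78 (0.000114) and -2.31 ± 0.36 (8.23e-05), being higher in BM AGF+ cells and without a call in LN. All 8 plasmacytoid DC markers, Ccr9 among them, were called in the same direction, and their part was not tested.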

How the data were processed

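RNA of sorted cells was made into libraries from 1.0 ng with the Ovation SoLo kit and read as 150-base pairs, per the labels' protocols. Tools named in the submitters' processing notes are STAR 2.7.3a and HTSeq 0.11.2 on mm10, with fastp 0.20.0, and the counting's treatment of strand is not stated there. The authors deposited raw read counts per gene, and their normalized table was not used. Of the genes, 327 with 0.0139% of counts had no symbol. All 35 members were matched by symbol.

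From the counts, CPM used TMM effective sizes (factors 0.876 to 1.09). Genes passing edgeR's expression filter by group were tested with edgeR 4.0.16 (quasi-likelihood, Benjamini-Hochberg over all genes tested, threshold 0.05) in R 4.3.3, in 1 fit per tissue and 1 fit of all 21 libraries for comparisons between tissues. Replicates differed by more than counting noise (chi-square over its degrees of freedom was 4.46 to 20.3 in 21 pairs). Floors and counting intervals, at 95%, cover counting error only.

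Members and lists were chosen with earlier results of these data known. The labels give no batch. Every library's value is given for members called in a sort at a mean of at least 5 CPM in 1 group, and the others by ranges or changes; for each other pathway list, the pair with the largest change in each direction is named, except 1 gene that is not reported here. Cxcl2, Cxcl9, Cxcl11, Cxcl13, Ccl4, Ackr2 and Ccr6 are given library values or changes outside that rule, chosen after their values were seen. Replicate numbers were checked as pairs: after subtracting group means, same-numbered libraries had correlations above 0.1 at all numbers for 5 of the 6 group pairs compared within a tissue (not for genotype in LN AGF+ cells) and for 0 of 12 across tissues. Blocked values are printed beside sort results they change. Alternatives were DESeq2 1.42.0 size factors and Wald test, library size alone, no filter, all libraries in 1 fit, the block, and libraries left out. Promoter letters came from RefSeq's table. Figures used matplotlib 3.10.9 in Python 3.11.15.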

Additional observations from a re-analysis of the deposited data

Results flagged for a closer look

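For 9 members in KI/+ mice, the change from comparison cells to AGF+ cells differed between LN and BM, by edgeR's test of the difference. The BM populations passed through different gates, so reporter and gate cannot be told apart there. The difference is the LN change (AGF+ against AGF− cells) minus the BM change (AGF+ cells against total DCs). For Cxcl10 it was -4.29 and for Cxcr5 -4.80, with LN changes of -1.66 and -1.44 and BM changes of 2.64 and 3.37. Ccr9 gave -2.31 and Ccr10 -4.89, with LN changes of -0.31 and -0.30 that did not pass and BM changes of 2.02 and 4.59. For Ccrl2 the difference was 1.5 ± 0.38 (edgeR adjusted p = 0.00662), with 1.16 in LN and -0.33, not called, in BM.

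The other 4 rest on smaller or less stable values. Cxcl2 differed by 4.31 ± 1.25 (edgeR adjusted p = 0.0165), with 1.35 in LN, not called, and -2.96 in BM. Cxcl9 differed by -2.68 ± 0.88 (0.0333), with -0.95 and 1.74, neither called. Ccl25 differed by 0.57 ± 0.19 (0.0347), with 0.24, not called, and -0.32. Cx3cr1 differed by -3.06 ± 1.02 (0.0363), with -2.54 in LN and too few counts in BM for a test there. Of 18 alternatives, Cxcl9 lost its call in 8: with DESeq2's Wald test (0.0511) and without LN AGF+ replicate 1 or 2, LN AGF− replicate 1 or 3, total DC replicate 1 or 3 or BM AGF+ replicate 2 (0.0505 to 0.126). Ccl25 lost it in 12, among them library size alone (0.0906) and single omissions of LN AGF+ replicate 2 or 3, any LN AGF− library, total DC replicate 1 or 3 or BM AGF+ replicate 2 or 3 (0.0592 to 0.167). Cx3cr1 lost it in 8, without LN AGF+ replicate 2, LN AGF− replicate 1, total DC replicate 2 or 3 or any BM AGF+ library (0.0569 to 0.0934). In the fit without the libraries numbered 2, the calls of Ccl25 (0.37), Cx3cr1 (0.22), Cxcl2 (0.17) and Ccrl2 (0.0592) were lost.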

How the results depend on the processing

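Of 82 calls of a member in a comparison, 0 were lost with DESeq2 size factors, 7 with DESeq2's Wald test, 4 with library size alone, 2 without the filter, 1 with the block and 20 of 81 without the libraries numbered 2, and 2 of 46 in the fit of all 21 libraries. The Wald test lost Cxcl11 in the AireKO LN sort (0.0765), Ccl4 (0.0559) and Ccl25 (0.0716) in the BM sort, Cxcr2 (0.0698) and Cxcl2 (0.0527) in KI/+ and Cxcl9 (0.0806) in AireKO between tissues, and Cxcl9 for sort by tissue (0.0511). Library size alone lost Ccl25 in the BM sort (0.174) and for sort by tissue (0.0906) and Cxcr2 (0.0553) and Ccr9 (0.0949) between tissues in KI/+. The single fit lost Cxcl10 in the AireKO LN sort (0.0683) and Ccl25 in the BM sort (0.0544). Without the filter on low counts, members called numbered 4, 2 and 1 for genotype in LN AGF+, LN AGF− and BM AGF+ cells (0 in each with the filter), 22 and 20 between the tissues in KI/+ and AireKO (14 and 13), 16 for sort by tissue (9), 1 for sort by genotype and 3 for genotype by tissue (0 and 0). The cause of these shifts was not tested. Leaving out the libraries numbered 2 gave 5 for sort by tissue. It gave 13 in the LN sort of each genotype, of which 11 in KI/+ and 12 in AireKO were also called with all libraries. In the BM sort it gave 14, of which 13 were also called with all libraries. Not every member that changed is named. With 1 library left out, calls ranged from 10 to 12 and 12 to 17 in the LN sorts (KI/+ and AireKO), 15 to 18 in the BM sort, 10 to 16 and 10 to 15 between tissues, 6 to 9 for sort by tissue and 0 to 1 for genotype in LN AGF+ cells, and stayed at 0 in the other 4. Cxcr4 in the BM sort (-0.08) ranged from -0.34 without total DC replicate 2 to 0.64 without total DC replicate 1.

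With the replicate number as a block, calls went from 13 to 16 and 16 to 17 in the LN sorts, 17 to 19 in the BM sort, 14 to 15 and 13 to 16 between tissues, and 9 to 13 for sort by tissue, and stayed at 0 for genotype and its interactions. Across tissues the libraries share a number, and those numbered 2 also share the Xist and Y-linked pattern given above. At 4164451 to 6055097 counts a library, members near 1 CPM rest on a few counts.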
